A study of Mus musculus with 6 samples.

Results

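Hepatic mRNA transcript abundance of NRF2, its inhibitor KEAP1, a set of NRF2 target enzymes and enzymes that supply NADPH was compared between DUhTP and DUC mice. The list held 10 genes: Nfe2l2, Keap1, Nqo1, Gclc, Gclm, Gsr, Txnrd1, G6pdx, Pgd and Me1. Members were all probe sets on the array whose only gene symbol was one of these. This gave 18 probe sets for 9 genes, out of 22626 probe sets tested and 12393 genes with a probe set of their own. G6pdx had 0 such probe sets and is not analysed here.

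DUhTP mice come from a line bred over many generations for high treadmill performance, without training or running wheels, and DUC mice from the control line. According to the labels, all mice trace to a stock made by crossing outbred and inbred lines and are non-inbred. All mice were male and 70 days old. Liver RNA was hybridized to 3 arrays per line, which the labels describe as 1 mouse each and the methods as pools, so that the spread behind every SD and p-value is one between arrays, whether of mice or of pools. The lines differ by selection history as a whole, and no single gene or treatment separates them.

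NRF2, the protein of Nfe2l2, is a transcription factor that switches on genes against oxidative and electrophilic stress. KEAP1 holds it in the cytoplasm and hands it to a CUL3 ubiquitin ligase for degradation, and modified KEAP1 lets it pass to the nucleus, where it binds antioxidant response elements together with small MAF proteins. Its targets make glutathione, reduce quinones and regenerate thioredoxin. The reductases among them draw on NADPH, which the oxidative pentose phosphate pathway, malic enzyme and isocitrate dehydrogenases provide, and which the liver also spends on fatty acid and cholesterol synthesis.

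Sequence around the transcription start sites was available from RefSeq (GRCm38.p6) for 8 of the 10 genes, with 12 start sites in all. Gclc and Gsr were not among them. Each entry spans 250 bases before and 50 bases after a start. The core of the antioxidant response element, TGACNNNGC, was searched on both strands (GCNNNGTCA on the other). It was found at 6 of the 12 start sites, 1 for each of 6 genes, against 12.4% of 32851 mouse start sites. For Pgd and Me1 this was 1 of 2 start sites and for Txnrd1 1 of 3. The share among the listed genes is not independent of the list, which was made to hold known NRF2 targets. It was not tested against the share of all start sites. The windows of the 5 measured genes with a match are shown, to be read beside the differences between the lines given below. Each is written 5′ to 3′ on the strand of the gene, with the matching letters in capitals.
Me1, chr9:86695902-86695930, minus strand, bases -6 to 3 from the start: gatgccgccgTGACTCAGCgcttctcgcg
Gclm, chr3:122245413-122245441, plus strand, bases -134 to -126: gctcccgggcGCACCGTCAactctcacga
Txnrd1, chr10:82859104-82859132, plus strand, bases -92 to -84: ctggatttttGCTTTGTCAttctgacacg
Nfe2l2, chr2:75704885-75704913, minus strand, bases -240 to -232: tcagcccaccTGACTCCGCcatgccccgg
Pgd, chr4:149166061-149166089, minus strand, bases 4 to 12: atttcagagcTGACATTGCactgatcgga
The Me1 match also holds TGACTCA, the AP-1 motif, and the others do not. A match of letters is a description of the sequence and does not show binding.

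The deposited values are intensities estimated with PLIER, linear and in arbitrary units. Array medians lay between 53.1 and 57.0, and correlations of log2 intensities between arrays between 0.950 and 0.976. Lines were compared with limma on log2 intensities, with p adjusted over all probe sets by the Benjamini-Hochberg method, and a probe set was called at an adjusted p under 0.05. A negative fold change (FC) means lower abundance in DUhTP mice. The defining hepatocyte product albumin (Alb) was bright in all arrays, between 13505 and 14468. Of 8 measured markers of exocrine pancreas, 8 read lower in DUhTP mice and 0 were called. Once 16 was added to all intensities, a constant that damps differences among dim probe sets, 4 of them fell, against 6% of all genes. The summed intensity of these markers was 987 to 3661 in DUhTP arrays, lowest in replicate 2, and 4017 to 7718 in DUC arrays. Their part in the results was not tested.

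Gclc, which encodes the catalytic subunit of glutamate-cysteine ligase, was the 1 gene of the 9 that was called. It was higher in DUhTP mice on both of its probe sets, by a factor of 1.67 and 1.64, while Gclm, the other subunit of that enzyme, had a log2 fold change of 0.0038. Nfe2l2, Keap1, Nqo1, Gsr and Txnrd1 did not pass the test either. Pgd read higher and Me1 lower in DUhTP mice on all their probe sets, and 3 of 4 Pgd and 1 of 2 Me1 probe sets passed once 16 was added.

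Over all genes with 1 symbol, 3.32% were called, 1.92% as higher and 1.4% as lower. A count of 1 in 9 is too small to set the list apart from these shares. Of the 18 probe sets 2 were called, 2 as higher and 0 as lower, against 2.41% of all probe sets, 1.36% as higher and 1.05% as lower. At an unadjusted p under 0.05, 7 of the 18 passed, against 21.1% of all, and these belonged to 3 genes, Gclc, Pgd and Me1. With 16 added, 6 of the 18 were called, 5 as higher and 1 as lower, against 8.62% of all, 3.92% as higher and 4.7% as lower. These belonged to 3 of the 9 genes, Gclc and Pgd as higher and Me1 as lower, against 11.3% of all genes, 5.31% as higher and 6% as lower. The lines did not overlap in 9 of the 18 probe sets, 6 with DUhTP above and 3 with DUhTP below DUC, against 29.4% of all probe sets, 13.6% above and 15.8% below. Those above were all of Gclc and Pgd, and those below of Me1 and Txnrd1. Probe sets of the same gene are not independent, so these counts do not show a shift across the list. The median log2 fold change was 0.06 for the 18 and -0.02 for all probe sets, and the median absolute log2 fold change 0.28 for the 18 and 0.25 for all.

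**Figure D1:**
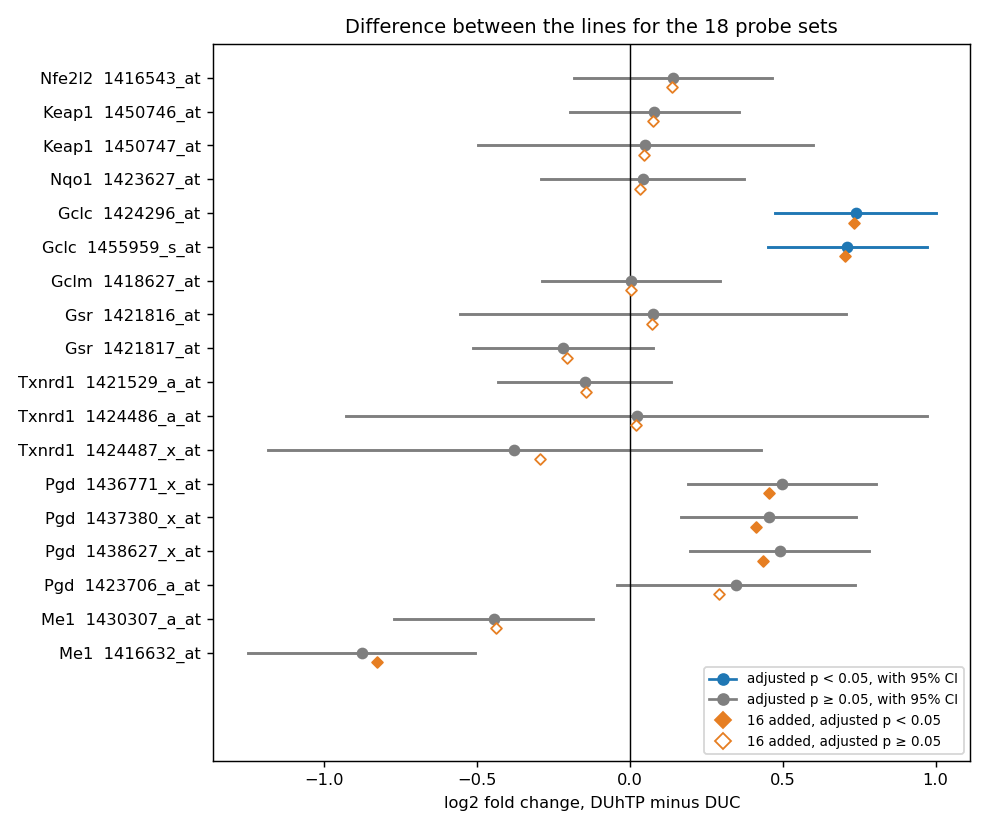
Log2 fold change (DUhTP minus DUC, x axis) of each of the 18 probe sets, with limma's 95% confidence interval, and as diamonds the log2 fold change with 16 added to the intensities. The 2 Gclc probe sets are called in both, 3 of the 4 Pgd probe sets and 1 of the 2 Me1 probe sets only with 16 added.

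The regulators showed no difference past the test. Nfe2l2 read 434.6, 362.9 and 463.8 in DUhTP replicates 1, 2 and 3, against 382.5, 362.1 and 392.9 in the DUC replicates. The DUhTP arrays spread wider than the DUC arrays, and the lines overlapped. The log2 fold change was 0.14, with a 95% confidence interval of the ratio from 0.882 to 1.38 (adjusted p = 0.586). Keap1 on 1450746_at read 273.9, 268.6 and 307.4 in DUhTP against 256.2, 283.8 and 263.1 in DUC mice. Here too the values were interleaved, and the interval of the ratio was 0.873 to 1.28 (adjusted p = 0.734). Keap1 on the dimmer 1450747_at read between 65.5 and 103.4 in DUhTP and between 70.3 and 94.6 in DUC mice (adjusted p = 0.923). Replicate 3 was the lowest array of both lines there. Equal abundance was not shown, since these intervals include differences in either direction. mRNA abundance of Nfe2l2 and Keap1 does not report NRF2 protein, which is set largely by degradation.

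Nqo1 encodes a quinone reductase that uses NADPH or NADH and is among the most widely used readouts of NRF2 activity. Its single probe set read 54.6, 52.2 and 62.1 in DUhTP against 59.4, 56.5 and 48.3 in DUC mice. The highest value was that of DUhTP replicate 3 and the lowest that of DUC replicate 3, with the others mixed between them. The mean was 56.3 ± 5.16 in DUhTP and 54.7 ± 5.73 in DUC arrays (SD, n = 3 per line), and the 95% confidence interval of the ratio was 0.818 to 1.29 (adjusted p = 0.892). The signal was weak, though above 28.4, the limit of the dimmest 33.3% of all probe sets, and no start site match was found for it.

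Glutamate-cysteine ligase is the rate-limiting enzyme of glutathione synthesis. Its catalytic subunit Gclc on 1424296_at read 3374, 3199.7 and 3625 in DUhTP replicates 1, 2 and 3, against 1945, 2086 and 2079 in DUC replicates. All DUhTP arrays lay above all DUC arrays, and the lowest DUhTP value exceeded the highest DUC value by more than the range within either line. The mean was 3399 ± 214 in DUhTP and 2037 ± 79.6 in DUC arrays (SD, n = 3 per line), which gave an FC of 1.67 and an adjusted p of 0.0335. On the log2 scale the difference was 0.74 with a standard error of 0.11. The second probe set, 1455959_s_at, read 1735, 1602.7 and 1814 in DUhTP against 1014, 1069 and 1061 in DUC mice. The DUhTP arrays ranked as on the first probe set, again all above DUC. The FC was 1.64 (adjusted p = 0.0356), with a 95% confidence interval of the log2 fold change from 0.45 to 0.97.

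With no constant added, the Gclc call was lost whichever array was left out. The adjusted p of 1424296_at was then 0.0984, 0.0701 and 0.0919 for the 3 DUhTP arrays in replicate order, and 0.123, 0.134 and 0.137 for the 3 DUC arrays. The log2 fold change itself stayed between 0.69 and 0.78. With 16 added, both Gclc probe sets were called with all arrays (adjusted p = 0.00332 and 0.00395) and without any 1 array (up to 0.0213 and 0.0245).

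The liver holds cells other than hepatocytes, and in whole tissue fewer cells of a type and less RNA per cell cannot be told apart. Markers of Kupffer cells and leukocytes were higher in sum in the line with more Gclc, at 4602 to 5697 in DUhTP and 3197 to 4271 in DUC arrays. Of 12 measured, 9 read higher and 3 lower on their brightest probe sets. Of these markers 1 rose, the Kupffer cell lectin Clec4f (FC 2.18, adjusted p = 0.0320), and 0 fell. With 16 added 6 rose and 1 fell, against 5.31% and 6% of all genes. The marker that fell was Marco (FC -1.52, adjusted p = 0.0778 without the constant and 0.0434 with it). Of 7 hepatocyte markers 0 rose and 1 fell, the aminotransferase Tat (FC -1.84, adjusted p = 0.0370), with sums of 59713 to 62331 in DUhTP and 65931 to 68992 in DUC arrays. With 16 added 2 hepatocyte markers fell, Tat and the transcription factor Hnf4a (FC -1.33 on its brightest probe set, adjusted p = 0.116; 0.0467 with 16 added). Hnf4a on 1427000_at had an FC of -1.58 (adjusted p = 0.0590 without the constant and 0.00948 with it). Its probe sets 1421983_s_at and 1450447_at also read lower but did not pass with 16 added (0.0642 and 0.159). Of 4 erythroid markers 1 rose (Alas2, FC 1.85, adjusted p = 0.0499). Of 7 stellate cell markers 1 rose, Col3a1 on 1427883_a_at (FC 1.91, adjusted p = 0.0434), though not on its dimmer 1427884_at (FC 1.24, adjusted p = 0.346). With 16 added 1 stellate cell marker fell as well, Rgs5 on 1420941_at (FC -2.61, adjusted p = 0.0543; 0.00342 with 16 added). On its brightest probe set, 1417466_at, the FC of Rgs5 was -1.21 (adjusted p = 0.611; 0.510 with 16 added). Its probe sets 1420942_s_at and 1420940_x_at did not pass either (adjusted p = 0.580 and 0.815). Of 6 endothelial and 5 cholangiocyte markers 0 were called, and with 16 added 1 endothelial marker, Stab2, rose (FC 1.40 without the constant, adjusted p = 0.0437 with it). The part of these cells in the differences of Gclc, Pgd and Me1 was not tested.

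**Figure D2:**
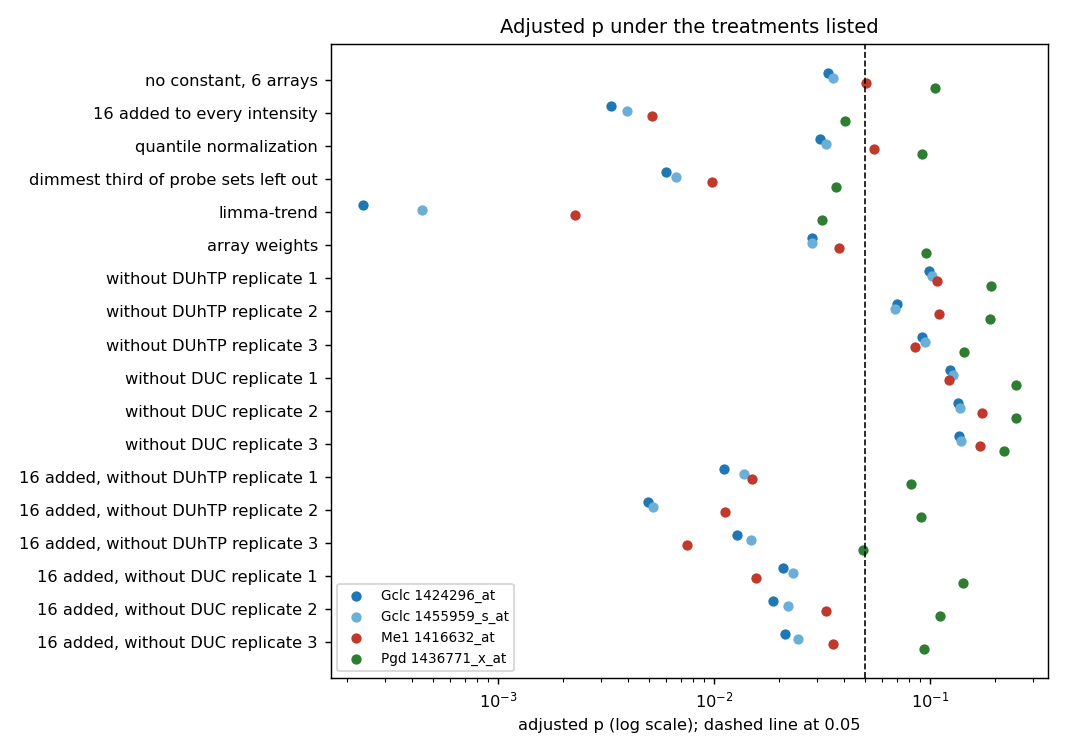
Adjusted p (x axis, log scale) of 4 probe sets of Gclc, Me1 and Pgd under the treatments listed on the y axis, with a dashed line at 0.05. Both Gclc probe sets lie to the right of the line when 1 array is left out without an added constant (0.0688 to 0.139), and to the left of it in the other settings drawn. The fit with the replicate number as a block, under which both lost the call, is not drawn.

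Gclm, the modifier subunit that raises the efficiency of the ligase, did not differ past the test. It read 1288, 1142 and 1075 in DUhTP against 1135, 1125 and 1229 in DUC mice. DUhTP arrays included both the highest and the lowest of the 6 values. The mean was 1168 ± 109 in DUhTP and 1163 ± 57.7 in DUC arrays (SD, n = 3 per line), with an interval of the ratio from 0.82 to 1.23 (adjusted p = 0.991). The log2 ratio of Gclc over Gclm within an array was 1.39 to 1.75 in DUhTP and 0.76 to 0.89 in DUC mice, a difference of 0.73. The exact two-sided permutation test gave p = 0.10 for this difference, and 0.15 after adjustment over the 3 pairs of genes compared. That 0.10 is the smallest it can give with 3 arrays against 3. On the log2 scale Gclc already separated the lines by more than Gclm varied over all 6 arrays. The p could therefore only be the smallest possible, and it adds nothing to the Gclc difference. The ratio of 2 probe sets shows unequal change and not the amounts of the 2 subunits.

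Gsr, glutathione reductase, returns oxidized glutathione to the reduced form with NADPH. On 1421816_at it read 381.9, 416.3 and 244.5 in DUhTP against 348.9, 371.5 and 255.7 in DUC mice. Replicate 3 was the lowest in both lines, and the lines overlapped (adjusted p = 0.897, interval of the ratio 0.681 to 1.63). On 1421817_at Gsr read 228.3, 237.1 and 256.2 in DUhTP against 251.8, 293.4 and 295.0 in DUC mice. The ranges overlapped only slightly, with an FC of -1.16 (adjusted p = 0.359). The log2 ratio of Gclc over Gsr averaged 3.33 ± 0.50 in DUhTP and 2.66 ± 0.31 in DUC arrays (SD, n = 3 per line), with overlap between the lines (exact two-sided permutation p = 0.20, 0.20 after adjustment over the 3 pairs).

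Txnrd1, the cytosolic thioredoxin reductase, keeps thioredoxin reduced at the cost of NADPH. Its brightest probe set, 1421529_a_at, read 774.4, 701.0 and 812.4 in DUhTP against 814.2, 902.0 and 815.5 in DUC mice. The DUhTP arrays lay just below the DUC arrays, with the highest DUhTP value next to the lowest DUC value. The FC was -1.11 (adjusted p = 0.514). The 2 dimmer probe sets, 1424486_a_at and 1424487_x_at, spread from 36.3 to 96.4 in DUhTP and from 40.2 to 90.2 in DUC mice, and their adjusted p was 0.983 and 0.558. Replicate 3 was the lowest array of either line on both. For the first of them the fold interval of 0.526 to 1.96 is too wide to place a difference of Gclc's size.

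**Figure D3:**
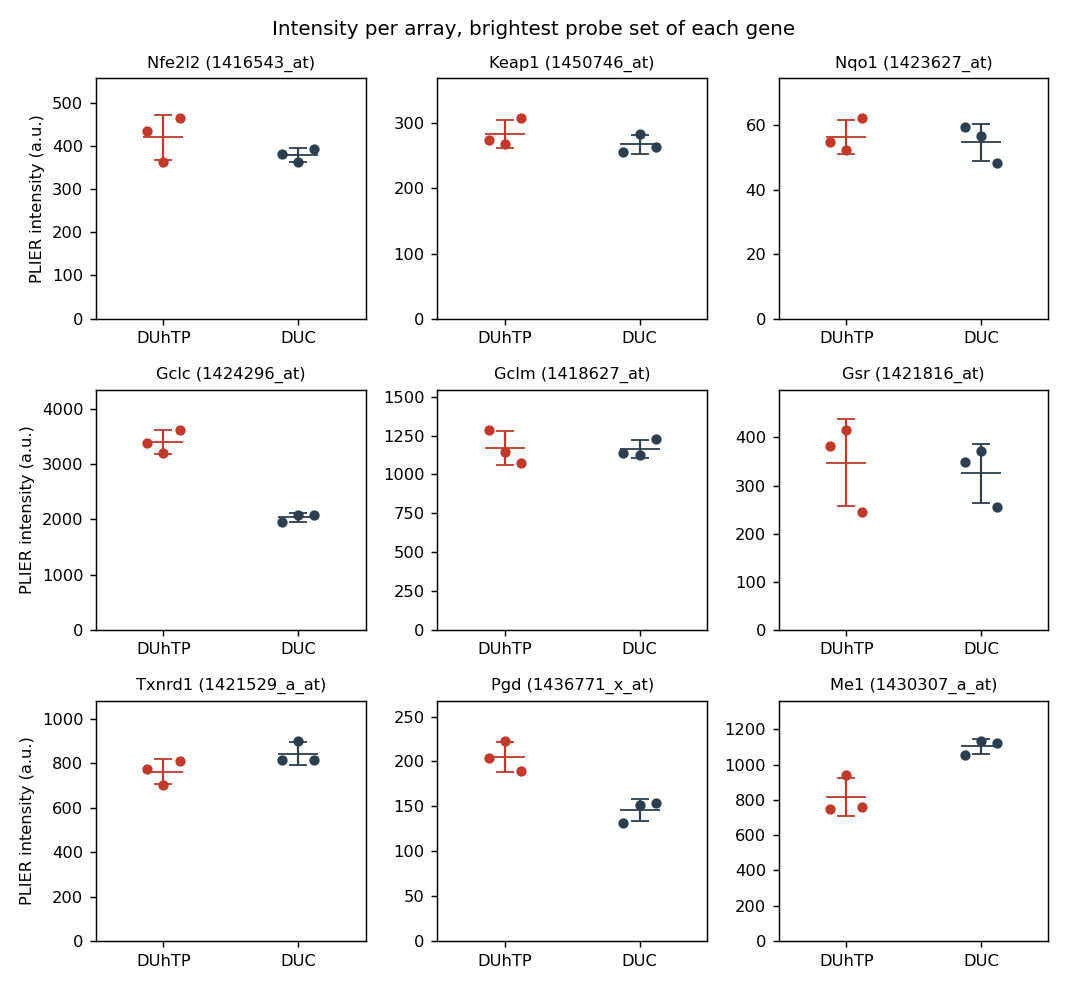
PLIER intensity (y axis, arbitrary units, starting at 0) of the brightest probe set of each of the 9 genes in the 3 DUhTP and 3 DUC arrays, with points for arrays and bars for mean ± SD. For Gclc, Pgd and Me1 the bars of the lines stay clear of each other, Txnrd1 shows lines that barely separate, and the arrays of the remaining 5 genes overlap.

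Among the NADPH enzymes, Pgd and Me1 read in opposite directions. Pgd encodes 6-phosphogluconate dehydrogenase, the second NADPH-forming step of the pentose phosphate pathway. On its brightest probe set, 1436771_x_at, it read 203.4, 223.1 and 189.6 in DUhTP against 131.3, 151.1 and 154.1 in DUC mice. All DUhTP arrays were above all DUC arrays on this and on the other 3 probe sets. The FC was 1.41 on 1436771_x_at (adjusted p = 0.105) and 1.37 on 1437380_x_at (adjusted p = 0.109). It was 1.40 on 1438627_x_at (adjusted p = 0.0964) and 1.27 on 1423706_a_at (adjusted p = 0.280), the dimmest. With 16 added the 3 brighter ones were called (adjusted p = 0.0405, 0.0495 and 0.0413) and the dimmest was not (0.206). With 16 added and any 1 array left out, these 3 were called only without DUhTP replicate 3. Probe sets ending in x can hybridize to related sequences, and 4 probe sets of 1 gene are not 4 independent measurements.

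Me1, the cytosolic malic enzyme, forms NADPH from malate and is known as a target of NRF2 and of lipogenic factors. On 1416632_at it read 173.6, 206.0 and 233.4 in DUhTP against 336.6, 396.2 and 387.9 in DUC mice. The highest DUhTP array was far below the lowest DUC array. The mean was 204.3 ± 29.9 in DUhTP and 373.5 ± 32.3 in DUC arrays (SD, n = 3 per line), an FC of -1.84 with a 95% confidence interval of the log2 fold change from -1.25 to -0.50. The adjusted p of 0.0503 missed the threshold narrowly, and it was 0.0850 to 0.174 when 1 array was left out. With 16 added it was 0.00515 with all arrays, and 0.00750 to 0.0353 without any 1 array. On the brighter 1430307_a_at Me1 read 745.9, 941.3 and 758.4 in DUhTP against 1056, 1135 and 1122 in DUC mice. The lines did not overlap there either, but the FC of -1.36 was smaller and did not pass (adjusted p = 0.142; 0.0563 with 16 added). The log2 ratio of Pgd over Me1 was -2.08 to -1.88 in DUhTP and -3.01 to -2.86 in DUC arrays, a difference of 0.94 (exact two-sided permutation p = 0.10, 0.15 after adjustment over the 3 pairs). It was taken from Pgd on 1436771_x_at and Me1 on 1430307_a_at. These already separated the lines in opposite directions, so this p could only be the smallest possible and adds nothing to them.

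The windows shown above with an antioxidant response element core belong to genes that read lower (Me1), higher (Pgd), and without a difference past the test in either treatment of the values (Gclm, Txnrd1 and Nfe2l2). Nqo1 and Keap1 had no match in the stretch searched.

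Other genes of the same pathways were taken from lists written from textbook knowledge, but chosen with earlier results of these data known. Of 59 measured genes 3 were called, Gclc among them, against 3.32% of all genes, a count too small to set the lists apart. With 16 added 13 were called, 9 as higher and 4 as lower, against 11.3% of all genes, 5.31% as higher and 6% as lower. Gstm3, a mu class glutathione transferase, was higher on 1427474_s_at at 1262, 1578 and 1346 in DUhTP against 522.9, 521.0 and 542.5 in DUC mice (FC 2.63, adjusted p = 0.0124), and its dimmer 1427473_at was called too (FC 3.34, adjusted p = 0.0320), a call that was lost without any 1 array (0.0754 to 0.104). The suffix s, also on 1 of the Gclc probe sets, marks probes that can match several transcripts, here of a gene family with close copies. Cbr1, a carbonyl reductase that uses NADPH, was lower at 649.3, 483.0 and 604.4 in DUhTP against 1072, 1127 and 994.4 in DUC mice (FC -1.85, adjusted p = 0.0473). The lines did not overlap for either gene. Cbr1 lost its call without any 1 array (adjusted p = 0.0789 to 0.167), and Gstm3 on 1427474_s_at kept it only without DUhTP replicate 1 or 2 (0.0429 and 0.0390, against 0.0544 without DUhTP replicate 3 and 0.0632, 0.0773 and 0.0754 without DUC replicate 1, 2 or 3). The abundant targets Gstp1, a pi class transferase, and Fth1, the ferritin heavy chain, had log2 fold changes of 0.04 and -0.01 (adjusted p = 0.863 and 0.980). Over the 16 measured genes of this list of other NRF2 targets, 1 rose and 1 fell, with a median log2 fold change of 0.07. With 16 added, 3 rose and 2 fell. Those added were the alpha class transferase Gsta4 (FC 1.72, adjusted p = 0.0584; 0.00727 with 16 added) and the aldehyde oxidase Aox1 (FC 1.40, adjusted p = 0.0882; 0.0287 with 16 added) as higher, and the canalicular exporter Abcc2 (FC -1.36, adjusted p = 0.0923; 0.0347 with 16 added) as lower.

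Of 11 measured genes of glutathione synthesis and reduction 1 rose and 0 fell, and their median log2 fold change was 0.08, against 0.00 over all genes. The peroxidases Gpx1 and Gpx4 had log2 fold changes of 0.12 and -0.03 (adjusted p = 0.520 and 0.897). Slc3a2, the heavy chain of the cystine and amino acid exchangers, read 559.3, 578.2 and 565.2 in DUhTP against 367.4, 388.9 and 405.1 in DUC mice. All DUhTP arrays lay above all DUC arrays. Slc3a2 missed the threshold (FC 1.47, adjusted p = 0.0555) and passed with 16 added (0.0130). In the thioredoxin list 0 of 9 measured genes were called, and 2 rose with 16 added. These were thioredoxin Txn1 (FC 1.32, adjusted p = 0.0980; 0.0408 with 16 added) and the peroxiredoxin Prdx4 of the endoplasmic reticulum (FC 1.43, adjusted p = 0.0889; 0.0253 with 16 added), each on its brightest probe set. Prdx4 did not pass on 1416166_a_at (FC 1.25) or 1435731_x_at (FC 1.23), with adjusted p of 0.126 and 0.158 even with 16 added. Txn1 did not pass on the dim 1456734_at (0.428 with 16 added).

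Of 9 measured genes of the KEAP1-NRF2 switch 0 were called, and 1 fell with 16 added. Cul3, the ligase scaffold that KEAP1 brings to NRF2, read 175.9, 117.6 and 169.3 in DUhTP against 257.7, 268.6 and 246.4 in DUC mice on 1422794_at. These lines did not overlap (FC -1.69, adjusted p = 0.0941), and with 16 added the adjusted p was 0.0188. Its 2 other probe sets were among the dimmest 33.3% (adjusted p = 0.705 and 0.393). For Sqstm1, an adaptor that can bind KEAP1, the log2 difference was -0.02 (adjusted p = 0.959), and for Bach1, a repressor at NRF2 sites, it was -0.44 on the brighter probe set (adjusted p = 0.340).

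Of 10 measured genes of NADPH supply 0 were called, and with 16 added these were Pgd as higher and Me1 as lower. Aldh1l1, a folate enzyme that forms NADPH, and Idh1, the cytosolic isocitrate dehydrogenase, had log2 fold changes of 0.23 and 0.25 on their brightest probe sets (adjusted p = 0.411 and 0.287). In the non-oxidative branch of the pentose phosphate pathway 0 of 4 measured genes were called. Transaldolase Taldo1 read 926.4, 978.3 and 947.5 in DUhTP against 660.0, 690.4 and 573.2 in DUC mice (FC 1.49, adjusted p = 0.0695). It rose with 16 added (0.0158). For transketolase Tkt the log2 difference was 0.33 on 1439443_x_at (adjusted p = 0.179). Slc3a2, Cul3, Gsta4, Aox1 and Abcc2 were chosen after their values had been seen.

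**Figure D4:**
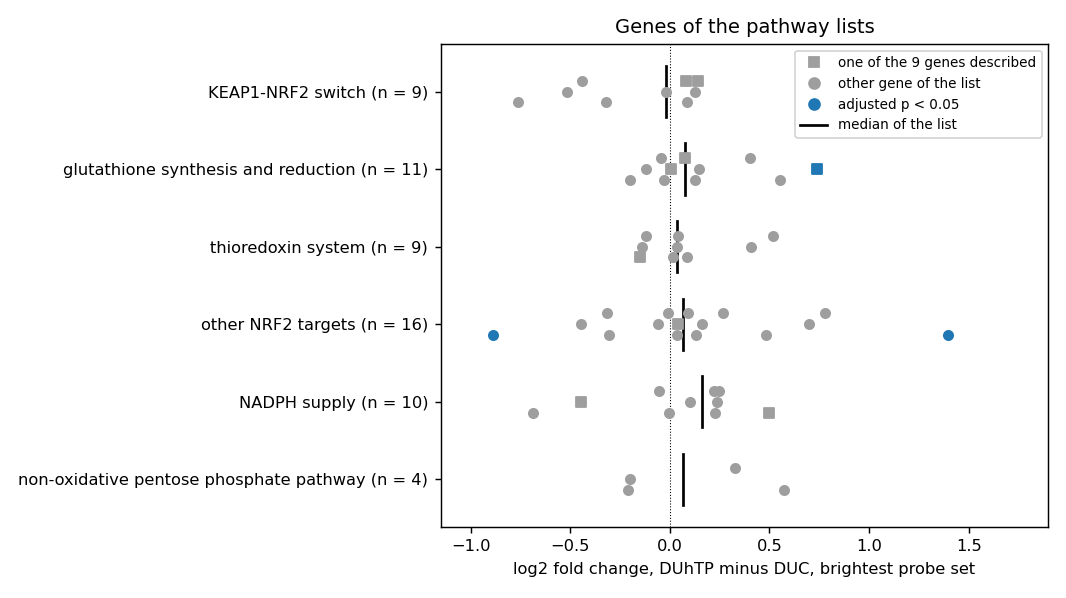
Log2 fold change (DUhTP minus DUC, x axis) of the brightest probe set of each measured gene in 6 pathway lists, with squares for genes described member by member, circles for the others, blue for an adjusted p under 0.05 and a line at each list's median. The medians lie between -0.02 and 0.16, and the 3 blue points are Gclc, Gstm3 and Cbr1.

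The genes with the most similar profiles over the 6 arrays were found by the root mean square difference of centred log2 intensities, among probe sets brighter than the median. For Gclc on 1424296_at they were Gmcl1, Wdr6 and Tnip1 (differences of 0.050, 0.061 and 0.067). For Pgd on 1436771_x_at they were Hectd3, Cd151 and Rfc5 (0.020, 0.026 and 0.043). For Me1 on 1430307_a_at they were Zfp777, Cdk4 and Nop53 (0.048, 0.053 and 0.059). The search ran over 10329 candidate probe sets and 6 arrays, and the likeness was not tested.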

How the data were processed

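Liver RNA of 3 DUhTP and 3 DUC arrays (Affymetrix Mouse Genome 430A 2.0) was used. After global scaling in GCOS 1.1.1 the authors used PLIER to estimate expression, and the deposited values are linear intensities. Whether a constant was added is not given in the sources used here. The table holds 22690 probe sets, of which 64 controls were left out. Symbols came from the array annotation: 20380 probe sets carry 1 symbol, 691 several and 1555 none, and 20351 of those with 1 symbol matched the RefSeq gene table by gene number. All intensities were above 0 and were logged to base 2. Lines were compared with limma 3.58.1 (R 4.3.3, lmFit and eBayes, unpaired) on all 22626 probe sets, with Benjamini-Hochberg adjustment. The procedure was tested on simulated data. Members and gene lists were chosen with earlier results of these data known. Named were all members, and from each list up to 3 other called genes with the smallest p and up to 2 further genes with the highest mean, and for the 3 members with the smallest p the 3 genes of most similar profile. Slc3a2, Cul3, Gsta4, Aox1, Abcc2 and the marker genes named fall outside this rule. As alternatives, 16 was added to every intensity, arrays were quantile normalized, the dimmest 33.3% of probe sets or those with a suffix for cross-matching were dropped, and limma was run with a trend, with array weights or with the replicate number as a block. Unadjusted p, the brightest probe set of each gene, and the omission of each array were tried as well. Omitting arrays with 16 added was chosen after seeing the data for the count over all probe sets and for the single probe sets, and not for the counts of called genes. The number of arrays limits the precision.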

Additional observations from a re-analysis of the deposited data

How the results depend on the processing

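The direction of both Gclc, all 4 Pgd and both Me1 probe sets was the same in every alternative in which they were measured. The count of called genes among the 9 was 1, and 3 with 16 added, without the dimmest 33.3% of probe sets, with limma-trend or by unadjusted p, 2 with array weights and 0 with the replicate block. Leaving out 1 array gave 0 in each case, and 2 to 3 together with 16 added. Over all probe sets the count was 546, against 1951 with 16 added (888 higher, 1063 lower, against 308 and 238), 1854 without the dimmest 33.3%, 2350 with limma-trend, 4769 by unadjusted p, 277 without those whose suffix marks possible cross-matches, 0 with the replicate block, 1 to 122 without 1 array, and 771 to 1591 without 1 array and with 16 added. Over all probe sets, same-numbered arrays of the lines showed little shared deviation (correlations of 0.003, 0.005 and 0.067). These correlations cannot show whether some probe sets share one. Replicate 3 was the lowest of both lines for Gsr on 1421816_at, for Keap1 on 1450747_at and for the dimmer Txnrd1 probe sets. With the replicate block the adjusted p of Gclc was 0.148 and 0.152. For the pathway lists the count was 3, against 13 with 16 added, 14 without the dimmest 33.3%, 17 with limma-trend, 20 by unadjusted p, 0 with the replicate block, 0 to 1 without 1 array, and 6 to 10 without 1 array and with 16 added. The sign of 5 small differences, none of which passed, turned when 1 array was left out: the log2 fold change ranged from -0.077 to 0.26 for Keap1 on 1450747_at, from -0.045 to 0.10 for Nqo1, from -0.069 to 0.062 for Gclm, from -0.088 to 0.31 for Gsr on 1421816_at and from -0.29 to 0.35 for Txnrd1 on 1424486_a_at. The cause of these shifts was not tested.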
